A study of Caenorhabditis elegans with 7 samples.

Results

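The subject is a group of 5 C-type lectin genes of Caenorhabditis elegans (clec-104, clec-126, clec-137, clec-197 and clec-244) in first-stage (L1) larvae of an ahr mutant and of the wild type. They were selected on measured values: they are the 5 genes with the greatest strain difference, in either direction, among the 22 genes named clec- in the authors' value table, which has 1290 rows, 961 of them with 1 gene symbol. Their strain differences are therefore given as a description, without a test. The nearest gene to stay outside the group was clec-226, with a log2 difference of 1.54 against -1.66 for clec-244, the member closest to the boundary. The value table was itself chosen from these arrays by criteria not given in the sources used here, so the direction of the other 17 lectin genes is no independent evidence either.

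C-type lectins are proteins built around the C-type lectin-like domain, a fold that in many animal proteins binds sugars in the presence of calcium. The worm has a large family of such genes, many of them predicted to be secreted, and a number of them change in expression when worms meet bacteria, so the family is widely studied in innate immunity of the gut and epidermis. The ahr gene of the worm, ahr-1, encodes the worm protein related to the aryl hydrocarbon receptor of vertebrates. It is a bHLH-PAS transcription factor that acts with the partner AHA-1 and is known in the worm mainly for roles in the fates of particular neurons. What the single members do is not described here, since the names given to them reflect the shared domain.

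The study compared 4 samples of a strain with a nonfunctional ahr gene (ahr-mutant, allele not named) with 3 samples of wild type (N2 in the study's title), all at L1. In both strains eggs were harvested and hatched on plates with E. coli and liquid. Total RNA of whole larvae was copied into Cy3-labelled cDNA, and each sample was hybridized to 1 spotted array that was read in a single colour. The mutant titles call the samples biological, but separate cultures are not stated, so any p-value measures only the spread between these samples. In RNA of whole larvae, fewer cells of a type and less RNA per cell cannot be told apart.

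Each array held 23232 spots, of which 21942 to 22593 had a positive signal, and the median signal of an array lay between 52277 and 90919 intensity units. Values below are log2 of the signal after quantile normalization, which gives the arrays the same distribution of signals. limma compared the strains at 22505 spots, and 2 of them (0.00889%) passed an adjusted p of 0.05, neither of them a lectin gene. The ahr-1 and aha-1 transcripts and the marker genes listed for intestine, hypodermis, muscle and neurons have no named row in the table and were not analysed here, so neither the mutation nor the makeup of the larvae was checked by a transcript.

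On ahr-mutant replicate 1 the spots are listed in an order of their own, unlike that shared by the other 6 arrays. As deposited, its rank correlation with them was between -0.0117 and 0.0354, while the other 6 correlated at 0.632 to 0.804 with each other. Runs of spots were put back into the common order by their signals, which placed 89.7% of the spots and brought the correlations to between 0.677 and 0.808. The placing itself sought high correlations, so these are no check on it. Of 381 spots whose place was known by exact value, 339 were placed the same and 0 elsewhere. A run whose known places conflicted had been set aside (1 run), so the 0 is partly by construction. For clec-126 the value of replicate 1 also rests on an exact match to the authors' table, which for the other 4 members has no value of that array. Their replicate 1 values below are therefore those of the re-placed file, and each difference is also given without that array.

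In the mutants, clec-137, clec-104, clec-197 and clec-244 had lower signals than in the wild type, and clec-126 had a higher one. The 4 lower genes differed by 3.17-fold to 4.37-fold and clec-126 by 3.69-fold. At each of the 5 spots the 4 mutant arrays did not overlap with the 3 wild-type arrays. This chosen feature is set beside a background of 3.94% of the spots with 7 values that were lower in all mutants without overlap and 4.52% that were higher, and nothing is read from the comparison.

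**Figure D1:**
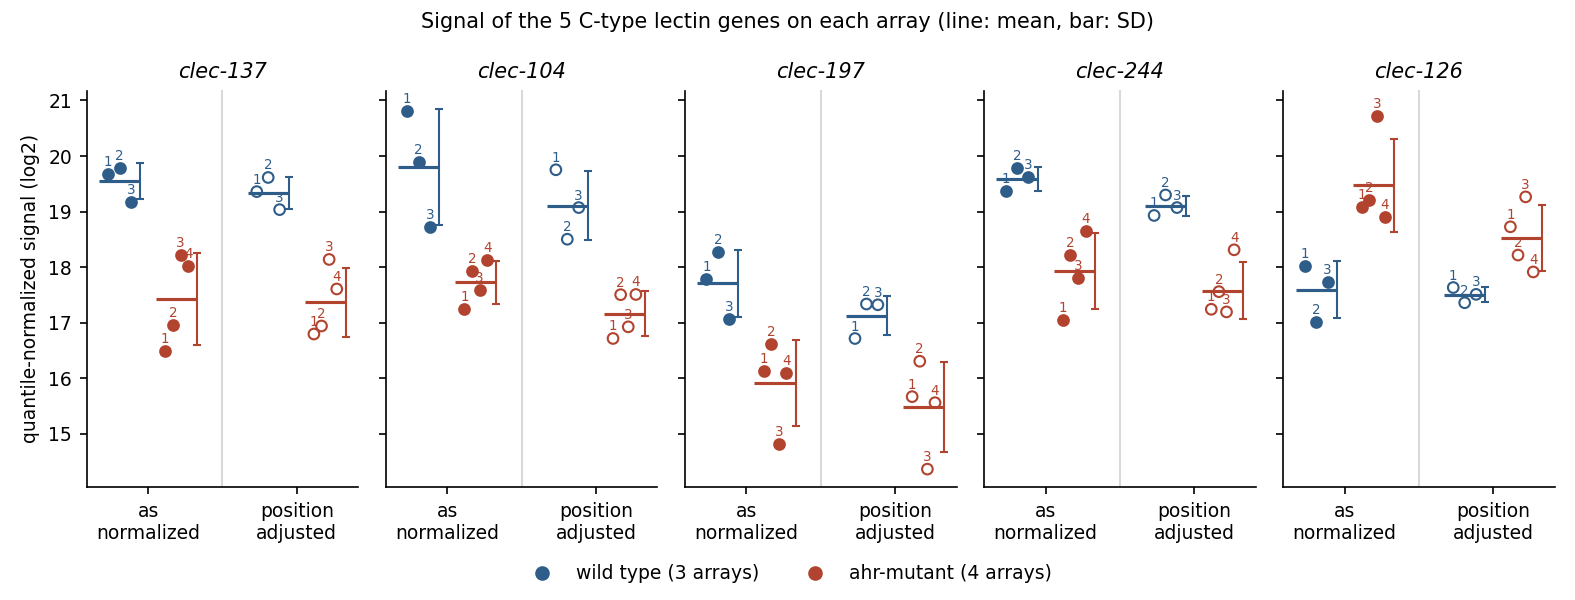
Normalized signal (log2) of the 5 genes on each array, with wild type in blue and ahr-mutant in red, filled points as normalized, open points after adjustment for local position on the slide, numbers giving the replicate, lines the mean and bars the SD. The red and blue points of a panel do not overlap on either scale, and clec-126 is the gene whose groups come closest after adjustment, with a gap of 0.28.

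clec-137 (F35D11.8) had the greatest difference. Its normalized signal in the mutants was 16.50 in replicate 1, 16.95 in replicate 2, 18.22 in replicate 3 and 18.01 in replicate 4. In the wild type it was 19.68, 19.79 and 19.17. The highest mutant lay 0.95 below the lowest wild type, and the mutants fell into a lower pair (replicates 1 and 2) and a higher pair (replicates 3 and 4), while the wild-type arrays lay close together. The means were 17.42 ± 0.83 (SD, n = 4) and 19.55 ± 0.33 (SD, n = 3), a log2 difference of -2.13 ± 0.47 (SE of the limma fit), or 4.37-fold lower in the mutants. Without ahr-mutant replicate 1 the log2 difference was -1.82.

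clec-104 (Y18D10A.10) differed by nearly as much, but here the spread lay on the side of the wild type. Its mutant signals were 17.25, 17.93, 17.59 and 18.13, a mean of 17.73 ± 0.39 (SD, n = 4). The wild-type signals were 20.81, 19.89 and 18.73, a mean of 19.81 ± 1.05 (SD, n = 3). Wild type replicate 3 stood only 0.60 above the highest mutant, whereas replicate 1 was the highest value of the gene on any array. The log2 difference was -2.08 ± 0.49 (SE), or 4.24-fold lower. It was -1.92 without ahr-mutant replicate 1, -1.58 without wild type replicate 1 and -2.62 without wild type replicate 3, so the size depended on which wild-type arrays entered.

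clec-197 (C49C3.12) gave signals between the 9.82th and the 86.1th percentile of the spots on an array, so that part of its values came from the dimmer end of the spots. The mutant signals were 16.14, 16.61, 14.82 and 16.09, with replicate 3 well below the other 3. The wild-type signals were 17.78, 18.27 and 17.06, with replicate 3 the lowest. The strains were separated by 0.45, the narrowest gap among the 5 genes. The means were 15.91 ± 0.77 (SD, n = 4) and 17.71 ± 0.61 (SD, n = 3), a log2 difference of -1.79 ± 0.49 (SE), or 3.46-fold lower. Leaving out ahr-mutant replicate 1 gave -1.87, and leaving out the low replicate 3 gave -1.43.

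clec-244 (T27C5.7) is listed as a pseudogene, not as a protein-coding gene, in the RefSeq gene table (WBcel235). Its mutant signals were 17.05, 18.21, 17.80 and 18.66, a mean of 17.93 ± 0.68 (SD, n = 4). The wild-type signals were 19.36, 19.79 and 19.63, a mean of 19.59 ± 0.22 (SD, n = 3), the tightest wild-type group among the 5 genes. Replicate 1 was the lowest mutant and replicate 4 the highest, 0.71 below the lowest wild type. The log2 difference was -1.66 ± 0.42 (SE), or 3.17-fold lower, and -1.37 without ahr-mutant replicate 1.

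clec-126 (W09G10.5) was the only one of the 5 with a higher signal in the mutants. Its mutant signals were 19.08, 19.21, 20.71 and 18.90, and its wild-type signals 18.01, 17.02 and 17.74. Mutant replicate 3 stood apart above the other 3, and the lowest mutant was 0.88 above the highest wild type. The means were 19.48 ± 0.83 (SD, n = 4) and 17.59 ± 0.51 (SD, n = 3), a log2 difference of 1.89 ± 0.49 (SE), or 3.69-fold higher. Without ahr-mutant replicate 3 the difference was 1.47.

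The authors' deposited table gives the same genes as ratios of signals. In the lectin rows with a value on every array, the median of a row is 1. In those without a value of replicate 1, the ratios listed do not have that median. For clec-104 the authors' deposited table lists 1, 0.865 and 0.949 in mutant replicates 2 to 4 and 9.81, 4.34 and 1.55 in the wild type. For clec-137 the authors' deposited table lists 0.387, 1 and 0.650 in those mutants and 3.57, 2.96 and 1.55 in the wild type. The wild-type ratios of clec-104 were thus spread more widely than those of clec-137, as in the array signals. For clec-126 the authors' deposited table has all 4 mutants, at 1.61, 1.45, 3.84 and 1, and the wild type at 0.882, 0.345 and 0.520. If the rows without a value of replicate 1 were scaled to a median of 1 as well, the 6 ratios listed place that array at the median or under it in 12 of the 15 lower lectin rows, the 4 lower members among them. In the other 3 rows (clec-68, clec-106 and clec-217) they would make replicate 1 the median itself.

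The strain difference of spots in general changed with their place on the slide, so each lectin spot was set against its surroundings. Slide position was inferred from the order of spots in the files, read as 12 slide rows of 4 blocks of equal size, since the files give no coordinates. Among spots that the authors' table does not hold, the difference had a median of -0.45 in slide row 1 and of 0.50 in slide row 12. The 4 lower members lay in slide rows 1 (clec-104 and clec-197), 4 (clec-137) and 6 (clec-244), where the table-free median of their own block was between -0.52 and -0.10. clec-126 lay in slide row 10, in the block with a median of 0.73, the highest of the 48 blocks. All 5 members thus had the sign of their surroundings, as had 18 of the 22 lectin genes in all. Most spots of the authors' table in the members' slide rows, lectins included, went the same way. In slide row 1, 84 table spots were lower and 1 was higher, and in row 4 the counts were 98 and 3. In row 6 they were 56 and 23, and in row 10 they were 3 and 100. Nothing particular to the lectins is read from their signs. The differences of all 22 were larger in size than the median of their block. The members were chosen for large differences, so nothing is read from this.

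**Figure D2:**
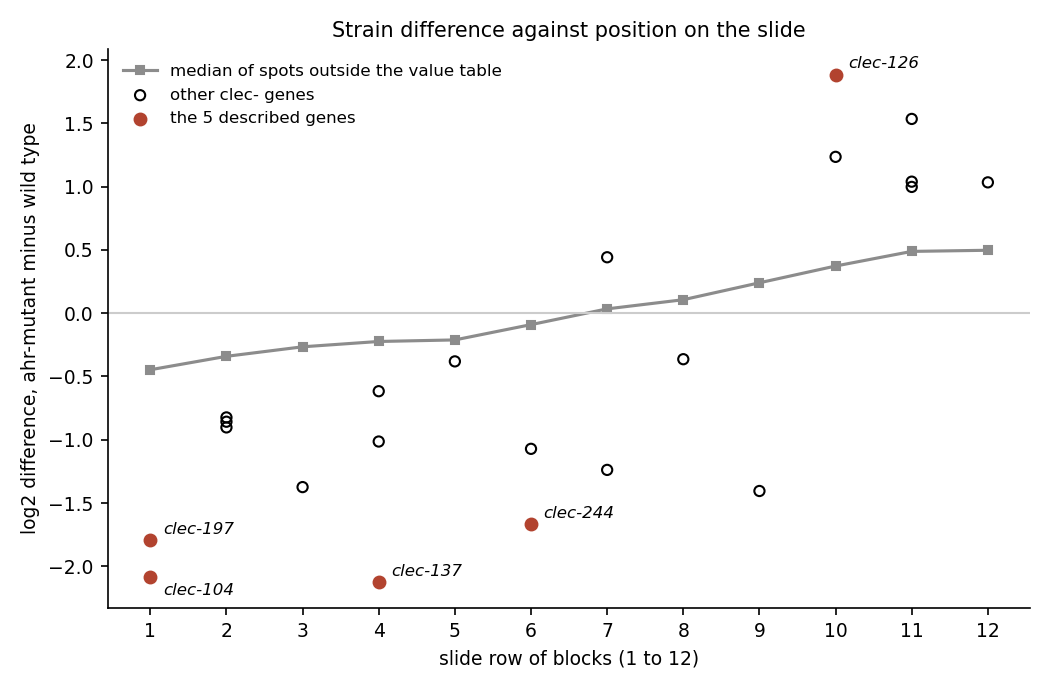
Log2 difference between the strains (ahr-mutant minus wild type) of each lectin gene against the slide row of its spot, with the 5 selected genes in red, the 17 other clec- genes as open circles and the median of the spots outside the value table as grey squares. The grey line rises from -0.45 to 0.50 from row 1 to row 12, the 15 lower lectin genes lie in rows 1 to 9 and the 7 higher ones in rows 7 to 12.

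Subtracting on each array the median of the table-free spots in a window of 21 by 21 spots around a gene (the local position adjustment) left the 4 lower members little changed and moved clec-126. clec-137 was 3.91-fold lower (log2 difference -1.97 ± 0.38, SE), clec-104 was 3.85-fold lower (-1.95 ± 0.37), clec-197 was 3.14-fold lower (-1.65 ± 0.44) and clec-244 was 2.88-fold lower (-1.52 ± 0.34). clec-126 was 2.04-fold higher (1.03 ± 0.36) in place of 3.69-fold, and its rank among the 22 genes went from 3 to 9. The trend subtracted at its spot was 0.36, 0.99, 1.45 and 0.98 in the mutants and 0.38, -0.34 and 0.23 in the wild type. The mutant arrays 2 to 4, and replicate 3 most of all, were thus brighter around the spot of clec-126 than every wild-type array. With block medians subtracted instead, the log2 difference was -1.96 for clec-137, -1.69 for clec-104, -1.25 for clec-197 and -1.51 for clec-244. By that measure clec-197 and clec-104 moved more than with the window. The part of position in the difference was not tested beyond these values.

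After the adjustment the signals of clec-126 were 18.73, 18.22, 19.26 and 17.91 in the mutants and 17.63, 17.36 and 17.51 in the wild type. The strains still did not overlap, with a gap of 0.28. For clec-104 the adjusted mutants were 16.72, 17.50, 16.92 and 17.51 and the adjusted wild type 19.75, 18.50 and 19.07. The gap of clec-104 widened from 0.60 to 0.99, because the adjustment raised wild type replicate 3 and lowered the other arrays. For clec-197 the adjusted wild type was 16.71, 17.34 and 17.32, a narrower range than before, and the mutants at 15.67, 16.31, 14.36 and 15.56 remained below it by 0.41.

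Of the 17 other clec- genes of the table, 11 had lower and 6 had higher means in the mutants, with a median log2 difference of -0.62. Over all 22 the split was 15 lower and 7 higher with a median of -0.84. The 760 other named genes of the table were split into 460 lower and 300 higher, with a median of -0.51, and the median over all 22505 spots was 0.02. In size, the differences of the 17 genes ran from 0.36 to 1.54 on the log2 scale. The strains did not overlap at 14 of the 17 (8 lower and 6 higher), which is 82.4% of them, against 79.0% of the other named table genes and, over spots outside the table, 6.56%. The lectins' share lay near that of the other named table genes, and nothing particular to the family is read from it.

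0 of the 17 other lectin genes passed limma's adjusted p of 0.05, the lowest adjusted p being 0.459 for clec-183. An unadjusted p of 0.05 was passed by 8 of the 17 as lower and 5 as higher, beside 3.48% of all spots as lower and 4.07% as higher. Among the 760 other named genes of the table, chosen as the lectins were, 256 passed it as lower and 222 as higher, so most named genes of the table did. With the local position adjustment 5 of the 17 passed it as lower and 1 as higher, against 169 and 128 of the 760.

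**Figure D3:**
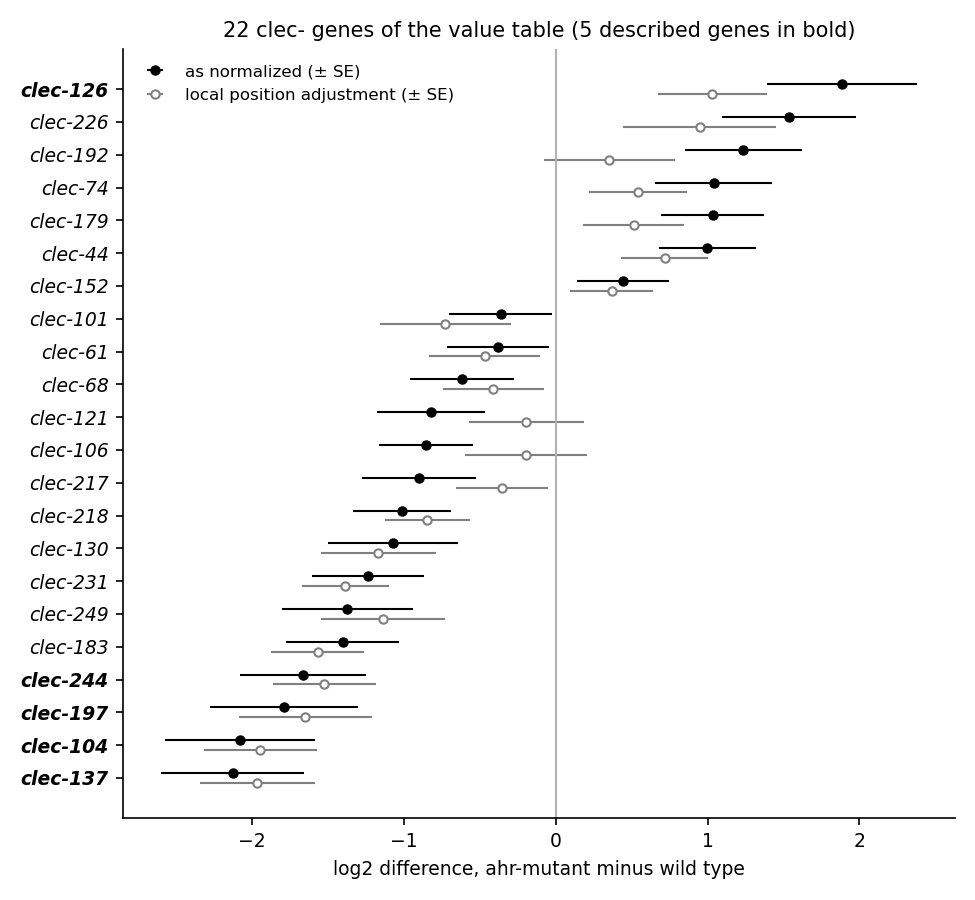
Log2 difference between the strains of the 22 clec- genes (horizontal axis, ahr-mutant minus wild type, bars ± SE of the limma fit), as normalized in black and after the local position adjustment in grey, with the 5 selected genes in bold. Each gene keeps its side of 0, and the grey points of the 7 higher genes all lie closer to 0 than the black ones.

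Among the lower genes outside the group, clec-183 came next, with mutants at 14.91, 15.51, 15.47 and 16.11 and wild type at 17.11, 17.04 and 16.56. It was 2.65-fold lower (log2 difference -1.40 ± 0.37, SE) although its spot lies in slide row 9, where the surrounding median was higher in the mutants. With the position adjustment it was 2.97-fold lower, which moved it from rank 7 to rank 4. clec-231, in slide row 7, likewise went from 2.36-fold to 2.61-fold lower, with adjusted mutants between 15.35 and 15.92 and adjusted wild type between 16.78 and 17.07. clec-130, in slide row 6, went from 2.10-fold lower with overlap to 2.25-fold lower without it. These 3 genes and clec-101, in slide row 8, are the 4 of the 22 whose difference had the opposite sign to the median of their block.

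clec-249 was 2.59-fold lower (log2 difference -1.37 ± 0.43, SE), with mutants at 18.58, 18.89, 19.86 and 19.84 and wild type at 21.09, 20.71 and 20.20. Its mutants split into the same lower pair, replicates 1 and 2, and higher pair as those of clec-137. After the adjustment its strains overlapped, at a log2 difference of -1.14. clec-218, in slide row 4, went from -1.01 to -0.85 with the adjustment, without overlap in either case.

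The 3 lectin genes of slide row 2 lost most of their difference. clec-217 went from -0.90 to -0.35, clec-106 from -0.86 to -0.20 and clec-121 from -0.82 to -0.20 on the log2 scale, and the strains overlapped at all 3 after the adjustment. clec-68 went from -0.62 to -0.41. Among the lower genes of the smallest difference, clec-61 differed by -0.38 over 3 mutants, since its spot on ahr-mutant replicate 1 was not placed, and by -0.47 after adjustment. clec-101 differed by -0.36, and by -0.73 after the adjustment, with overlap in both cases. Its signal lay between the 0.436th and the 11.3th percentile of an array, near the lower end, and its difference was -1.07 with normexp background correction.

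Of the higher genes, clec-226 was 2.90-fold higher (log2 difference 1.54 ± 0.44, SE), with mutants at 17.45, 18.90, 18.65 and 17.83 and wild type at 16.96, 16.12 and 16.93. After the adjustment it was 1.93-fold higher and the strains overlapped. clec-192, at 2.36-fold higher, shares its spot with another row that has no gene name, and it went to 1.28-fold with overlap. clec-74 (2.06-fold) and clec-179 (2.05-fold) also overlapped after adjustment, at 1.46-fold and 1.43-fold. clec-44 went from 2.00-fold to 1.64-fold and clec-152 from 1.36-fold to 1.29-fold, and with clec-126 these are the 3 higher genes whose strains did not overlap on either scale.

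After the adjustment, 11 of the 22 lectin genes had strains that did not overlap, 8 of them lower and 3 higher, beside a background of 3.4% of spots with 7 values for lower and 3.86% for higher. The share without overlap was then 35.3% of the 17 other lectins and 45.0% of the 760 other named table genes, and here too nothing particular to the lectins is read. The 5 members were among them. All 22 genes kept their direction, and 17 had a smaller difference than before. The median over the 15 lower genes was -1.07 without and -1.14 with the adjustment, and that over the 7 higher genes was 1.04 without and 0.54 with it.

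**Figure D4:**
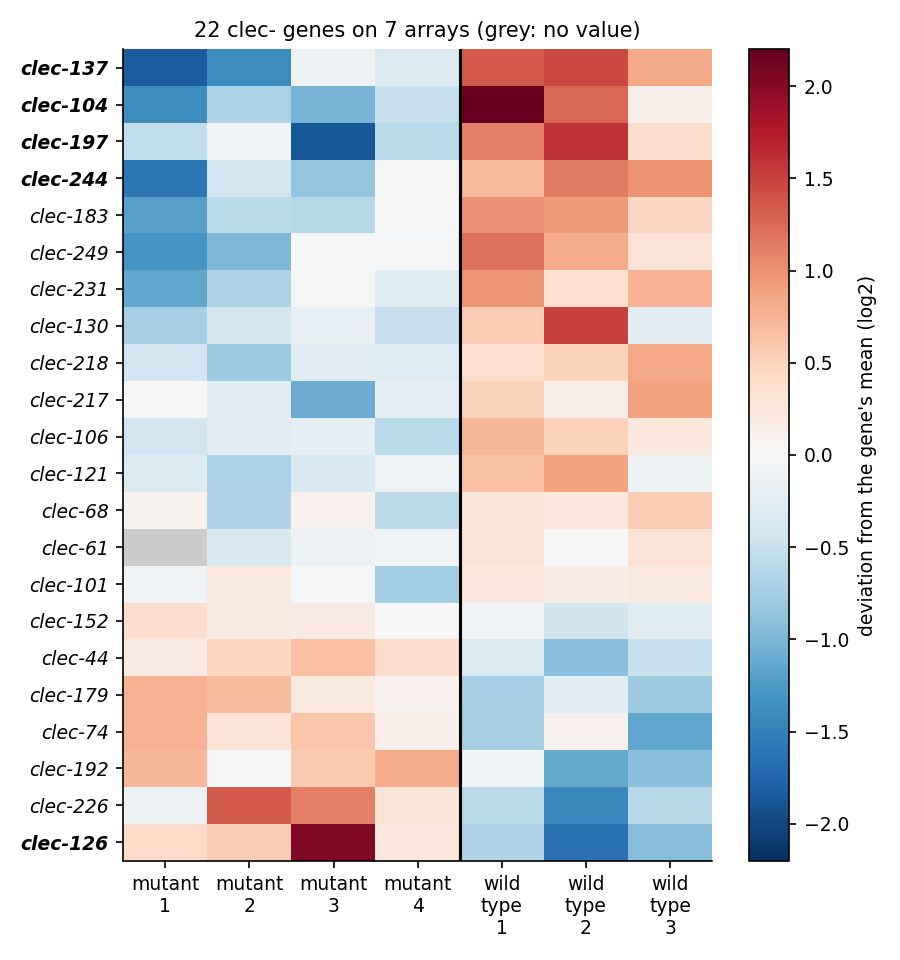
Deviation of each lectin gene from its own mean over the arrays (log2 colour scale, blue lower and red higher) on the 4 ahr-mutant and 3 wild-type arrays, ordered by the difference between the strains, with the 5 selected genes in bold and grey for the value not placed. ahr-mutant replicate 1 is the darkest blue mutant for 7 of the 14 lower genes with a value, and ahr-mutant replicate 3 holds the strongest red among the mutant arrays, at clec-126.

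Single arrays did not move all lectin genes together. Of the 14 lower genes with a value on every array, ahr-mutant replicate 1 was the lowest mutant for 7, replicate 2 for 3, and replicates 3 and 4 for 2 each. At all 14, replicate 1 lay below every wild-type array. That array enters the means by which these genes count as lower, and the table was chosen from these arrays. Nothing is therefore read from this count, and it is no check on the placing. ahr-mutant replicate 3 was the highest mutant for 7 of the 14, yet it was the lowest for clec-197. In the wild type, replicate 3 was the lowest array for 8 of the 15 lower genes, clec-104, clec-137 and clec-197 among them. Of the 7 higher genes, wild type replicate 1 was the highest wild-type array for 5, and ahr-mutant replicate 4 was the lowest mutant for 4, clec-126 among them.

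The named table genes whose signals ran most like those of the members were found by Pearson's r over the 6 arrays whose order is as deposited, among 780 genes. These 6 arrays are 3 mutants and 3 wild types, and the strain split alone gives high values in a table selected on it, so r is a description with no p. The signals used for r were not adjusted for slide position. For clec-126 the closest were ets-6, of the ETS family of transcription factors (r = 0.998), and C02G6.1 (0.991). ets-6 lies in slide row 10 as clec-126 does, and C02G6.1 lies in slide row 11. For clec-137 they were fbxa-106, an F-box gene (0.994), and mrp-6, of the ABC transporter family (0.986). fbxa-106 lies in slide row 4 as clec-137 does, and mrp-6 lies in slide row 2. These high values were common, since 99 genes reached 0.9 with clec-126 and 55 with clec-137.

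For clec-197 the closest genes were csp-3, related to caspases (0.996), and C17F4.2 (0.991), both in slide row 1 as clec-197 itself. For clec-244 they were F41G3.6 (0.990) and str-4, of the chemosensory receptor families (0.985), both in slide row 1. For clec-104 they were srab-22, another receptor of that kind (0.986), in slide row 9, and D1014.4 (0.982), in slide row 5. No lectin gene was among these closest genes. The closest lectin was clec-183 for both clec-104 and clec-244 (0.930 in each case), clec-249 for clec-137 (0.963), clec-44 for clec-126 (0.939) and clec-244 for clec-197 (0.886).

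All 22 symbols stand unchanged in the WBcel235 gene table, which lists 264 clec genes, 239 protein-coding and 25 pseudogenes (9.47%). Among the 22 genes described here, 4 are pseudogenes (18.2%): clec-244, which was lower, and clec-44, clec-152 and clec-192, which were higher. No probe sequences were at hand, so whether the spots of these 4 also bind transcripts of related genes was not examined. In the order of genes along the chromosomes, clec-197 lies directly beside clec-198, clec-137 beside clec-136 and clec-126 beside clec-125, neighbours that have no row in the table. clec-104 and clec-106 have 2 genes between them and were both lower, by 4.24-fold and 1.81-fold, the second with a log2 difference of only -0.20 after the position adjustment.

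clec-126 and clec-130 have 14 genes between them and differed in opposite directions, at 1.89 and -1.07 on the log2 scale, and at 1.03 and -1.17 after the adjustment. clec-68 and clec-74 have 8 genes between them and also differed in opposite directions, at -0.62 and 1.04. The block medians around clec-68 and clec-74 had opposite signs (-0.20 and 0.43), while those around clec-130 and clec-126 were both above 0 (0.03 and 0.73).

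Other families of antimicrobial and sugar-binding effectors gave little to set beside the lectins. The list of such families covered lysozymes, saposin-like proteins, thaumatins, antibacterial factors, caenacins, fungus-induced peptides and galectins. Genes named irg- or dod- and a set of nlp- peptide genes were also on it. The list has 2 named rows in the table. fipr-28, of the fungus-induced peptide relatives, was at 15.26 ± 0.32 in the mutants (SD, n = 4) and 16.01 ± 0.31 in the wild type (SD, n = 3). It was 1.68-fold lower, and 1.51-fold lower after the position adjustment, with a limma adjusted p of 0.661. spp-27, of the saposin-like family, matched no spot by value and has no array signal here.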

How the data were processed

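Per the labels, L1 larvae of 4 ahr-mutant and 3 wild-type samples were measured on 1-colour spotted arrays. The authors deposited 1 linear intensity per spot, and neither scanner nor background treatment is given in the sources used here. Besides these, the authors deposited a value table whose values are, by their fit to the array files, ratios of signals. In the lectin rows with a value on every array, the row median is 1. Rows were matched to spots by value within 0.0001 on the log2 scale (1080 of 1290 rows), and names came from the annotation supplied with the table.

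Intensities that were blank, 0 or negative were left out. Signals were taken to log2 and quantile normalized, and the file of ahr-mutant replicate 1 was put back into the common order in runs of 100 or more spots whose correlation with the other arrays was 0.7 or higher. The lower members therefore rest on this step for that array. The strains were compared two-sided with limma 3.58.1 (lmFit, eBayes and Benjamini-Hochberg adjustment, under R 4.3.3) at spots with at least 2 values per strain. The placing and the limma fit were also run on simulated data. The simulation of the placing was built from the order already found, and that of the fit had no trend over the slide. Neither is used as support.

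Named genes were the 5 members, every other clec- row, the 2 genes most like each member over 6 arrays, and up to 4 effectors. The members and lists were chosen with earlier results of these data known. Alternatives covered scaling, background correction, filters, slide position, array weights, the authors' ratios and each array left out. The number of arrays limits the precision.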

Additional observations from a re-analysis of the deposited data

How the results depend on the processing

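Directions of the 22 lectin genes did not change under any of the alternatives that gave them a value. Over 18 alternatives the log2 difference ran from -2.62 to -1.58 for clec-104, -2.40 to -1.82 for clec-137, -2.21 to -1.25 for clec-197, -1.91 to -1.37 for clec-244 and 1.03 to 2.37 for clec-126. Slide position moved clec-126 to 1.04 with block medians subtracted and 1.03 with the local position adjustment, and moved the median of the 22 genes from -0.84 to -0.35 and -0.44. The value of -1.25 for clec-197 was also that with block medians subtracted. The other 17 counted 9 to 11 lower and 5 to 6 higher, the lowest lower count with dim spots left out and 5 higher with clec-192 set aside, an alternative chosen after seeing the data (median -0.86). The 2 spots past the adjusted threshold became 3 with the local position adjustment and 0 with dim spots left out, with label numbers 59 to 63, with median scaling and with normexp. Label numbers 59 to 63 cover ahr-mutant replicates 2 and 3 and all 3 wild types. Replicates 1 and 4 of the mutant carry 56 and 54. Leaving out any array gave 0 to 0. Spots past the unadjusted threshold numbered 1181 to 2056 against 1701. Of these 53.9% were higher, but 42.8% with median scaling and 42.3% without wild type replicate 3. The cause was not tested. No paired analysis was possible because the sample numbers in the labels differ between the strains, and the replicate numbers printed here only name samples.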

Other observations

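The table also names 4 genes of families known from the germ line or later stages (msp, nspd and ssp). The peptide family gene nspd-7 was 6.16-fold higher in the mutants (n = 3 mutants and 3 wild types) and its relative nspd-10 was 3.25-fold higher, with overlap between the strains. The major sperm protein gene msp-78 was 2.10-fold higher, and ssp-19, a sperm-specific family gene, was 1.68-fold lower. None of the 4 passed limma's adjusted p of 0.05 (lowest adjusted p 0.492), and all 4 passed limma's unadjusted p of 0.05. Over all spots, 3.48% passed the unadjusted p as lower and 4.07% as higher. Of the 760 named genes of the table other than lectins, 256 passed it as lower and 222 as higher. Most named genes of the table thus did, and nothing particular to the 4 is read. With the local position adjustment 2 of the 4 passed the unadjusted p, against 169 of the 760 as lower and 128 as higher. nspd-7 was then 4.46-fold, nspd-10 2.43-fold and msp-78 1.57-fold higher, and ssp-19 was 1.16-fold lower. Their part in the lectin differences was not tested.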
